A study of Neurospora crassa with 33 samples.

Results

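Cross-pathway control in *N. crassa* was followed through 5 genes, taken by their locus identifiers from the 9729 genes listed in every library: the regulators *cpc-1* (NCU04050) and *cpc-2* (NCU05810), and the biosynthetic genes *arg-2* (NCU07732), *his-3* (NCU03139) and *trp-3* (NCU08409). All 5 were measured in every library and passed the filter of a mean TPM of at least 1. The libraries came from mycelia of strains lacking *cpc-3* (Δ*cpc-3*), which encodes an eIF2α kinase, and of WT strains. In each host background a strain carried 1 of 4 EDP reporters, which hold 3 copies or 1 copy of the CDS of a small *N. crassa* protein, with optimized codons (3×OPT-EDP, 1×OPT-EDP) or with its native codons (3×WT-EDP, 1×WT-EDP). Both hosts were grown alike, in Vogel's medium with 2% glucose, for 2 days without shaking, and then as discs for 12 h with shaking in constant light, and cycloheximide was present in the lysis buffer alone. No amino acid was withheld and no inhibitor of amino acid synthesis was used. There were 13 libraries of ribosome protected fragments (RPFs) from the Δ*cpc-3* strains (4 for 1×WT-EDP and 3 for each other reporter) and 12 from the WT strains (3 for each reporter), with 1 mRNA-seq library for each of the 8 strains. Each reporter was expressed from the *ccg-1* promoter after transformation to the *csr-1* locus, in strains purified to homokaryons, so that a reporter and its transformant cannot be told apart.

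Cross-pathway control is the fungal response in which a shortage of any 1 amino acid raises the transcription of genes for the synthesis of many. When uncharged tRNA accumulates, the kinase CPC-3, the orthologue of yeast GCN2, phosphorylates eIF2α. General initiation then slows, while the CDS of *cpc-1*, which lies behind upstream open reading frames, is translated more. CPC-1 is a bZIP transcription factor of the GCN4 type that activates the biosynthetic genes. CPC-2 is a WD-repeat protein of the ribosome, the orthologue of RACK1, that the response also needs. *arg-2* encodes the small subunit of the arginine-specific carbamoyl phosphate synthetase and has an upstream open reading frame for the arginine attenuator peptide. *his-3* encodes a trifunctional enzyme of histidine synthesis, and *trp-3* encodes tryptophan synthase. Reads were counted on CDS regions only, so the upstream open reading frames have no values here. The CDS lengths listed with the values are 813 nt for *cpc-1*, 951 nt for *cpc-2*, 1362 nt for *arg-2*, 2613 nt for *his-3* and 2127 nt for *trp-3*.

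Depth on the CDS regions was 1223803 to 6960463 reads per RPF library in Δ*cpc-3* and 2803473 to 10036775 in WT. The mRNA libraries held 1267419 to 1774421 reads in Δ*cpc-3* and 948525 to 1203434 in WT. A member was covered by at least 380.5 reads in any RPF library and by at least 268 in any mRNA library. TPM, the FPKM of a gene as a share of the library's FPKM sum, scales every level given here. The *cpc-3* CDS itself matched the host labels, with 0 to 0.117 TPM of RPFs in Δ*cpc-3* and 5.81 to 7.69 in WT, and with 0.129 to 0.614 mRNA TPM in Δ*cpc-3* and 8.20 to 12.6 in WT. Among markers of conidiation, the other cell fate of such a culture, the summed mRNA level of 5 genes (*con-6*, *con-8*, *con-10*, *con-13* and *eas*) was 2163 to 3118 TPM in Δ*cpc-3* strains and 1175 to 1395 TPM in WT strains. Nearly all of it was *eas*, the hydrophobin of the conidial surface (median 1592 TPM in Δ*cpc-3* and 593 TPM in WT), and *con-8* (median 797 TPM in Δ*cpc-3* and 599 TPM in WT). *con-10* mRNA had a median of 0 TPM in both hosts. At mRNA 1 of the 4 markers tested was called higher, where 15.6% of all genes were, and the lowest change was -0.12. In the RPF libraries the sum was 3426 to 7055 TPM in Δ*cpc-3* and 1576 to 2325 TPM in WT. There 3 of the 4 markers tested were called higher, where 15.1% of all genes were. *con-13* was at 0 in all 25 RPF libraries, and *con-6* was at 0 in 1 of 13 Δ*cpc-3* and in 8 of 12 WT libraries. The part of these cells in the values of the 5 members was not tested. In whole mycelia, fewer cells of a type and less RNA per cell cannot be told apart.

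The deposited FPKM and the interval deposited around it do not carry the same values for these genes, and the RPF libraries fall into sets by the ratio of the FPKM to the midpoint of its interval. The midpoint was taken to stand for the reads per kilobase of the whole CDS. It lies above them for genes with few reads, because the lower bound cannot fall below 0. For *his-3* the ratio was 0.388 to 0.484 in 10 of the 13 Δ*cpc-3* libraries, and 0.764 to 0.824 in replicates 1 to 3 of Δ*cpc-3* with 1×WT-EDP. In WT it was 0.768 to 0.892 in replicates 1 and 2 of each strain, and 1.00 to 1.02 in replicate 3. *cpc-2*, *arg-2* and *trp-3* were split in the same way between the hosts, with 0.412 to 0.636 in those 10 libraries and 0.793 to 1.09 in the WT libraries. *cpc-1* was not, with 1.22 to 1.29 over all Δ*cpc-3* libraries and 1.15 to 1.32 over all WT libraries. In the mRNA libraries the ratio of each gene was nearly the same in both hosts, 1.00 to 1.06 in Δ*cpc-3* and 1.00 to 1.03 in WT for the 3 biosynthetic genes. Replicate 3 of the 4 WT strains also stood apart in level: *arg-2* RPFs were 158 to 174 TPM there and 118 to 132 TPM in replicates 1 and 2, and NCU16635, a 78-nt CDS, held 10.01% to 12.1% of RPF TPM there and 22.4% to 25.4% in replicates 1 and 2. The mismatch was not confined to the members. Among all genes with a lower bound above 0, 15.2% to 50.1% had an FPKM outside its interval in Δ*cpc-3* RPF libraries. It was 18.8% to 26.7% in WT RPF libraries, and 9.72% to 13.7% over the mRNA libraries. The shares of all genes given for the FPKM come from the same values. What sets the ratio is not described in the sources used here, and its part in the RPF results was not tested. Each RPF result is therefore given from the deposited FPKM and then from the midpoint, both scaled to TPM.

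**Figure D1:**
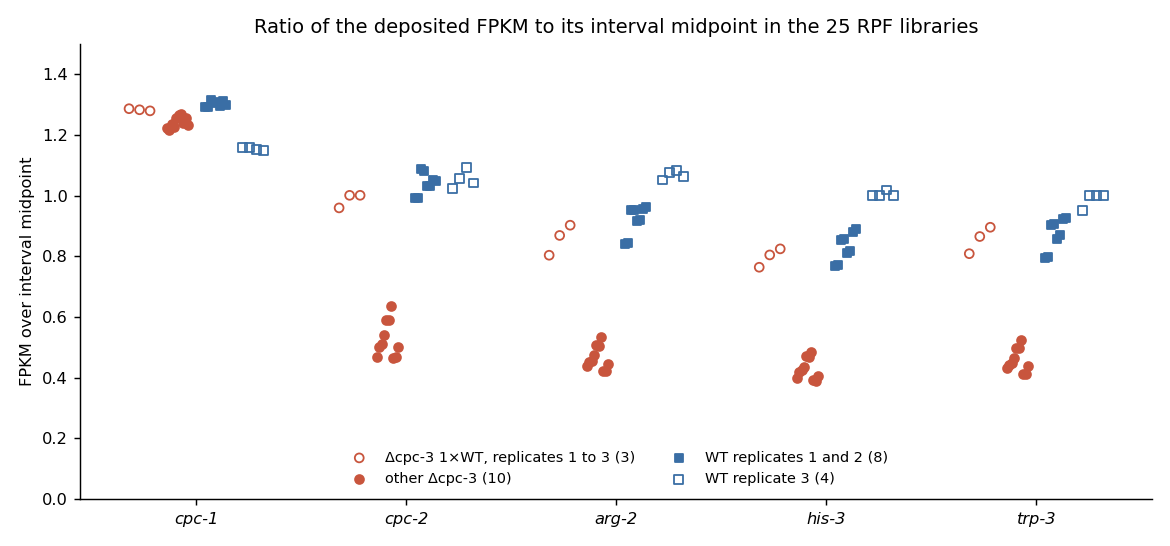
Ratio of the deposited FPKM to the midpoint of its interval (no unit, y axis) for the 5 genes (x axis), 1 point per RPF library. Circles are Δ*cpc-3* and squares WT libraries; open circles are replicates 1 to 3 of Δ*cpc-3* with 1×WT-EDP and open squares replicate 3 of the WT strains. The 10 other Δ*cpc-3* libraries sit at 0.388 to 0.636 for every gene but *cpc-1*, where they sit at 1.22 to 1.27.

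The mRNA of the transcription factor *cpc-1* was higher, and that of its target *trp-3* lower, in Δ*cpc-3*. *cpc-1* mRNA was 808, 665, 718 and 687 TPM in the Δ*cpc-3* strains (in the order 3×OPT-EDP, 1×OPT-EDP, 3×WT-EDP, 1×WT-EDP), against 521, 419, 552 and 523 TPM in the WT strains. The lowest Δ*cpc-3* strain stood above the highest WT strain, and *cpc-1* averaged 719.8 ± 62.9 TPM in Δ*cpc-3* and 504 ± 58.2 TPM in WT (SD, n = 4 each). The log2 change was 0.52 ± 0.13 (SE), with a limma adjusted p of 0.0351. That call belongs to the TPM scale: the median mRNA changed by 0.36 on this scale, and relative to the median of each library *cpc-1* differed by 0.13 (adjusted p = 0.503).

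*trp-3* mRNA, for the enzyme that closes tryptophan synthesis, was 115, 100.5, 111 and 127 TPM in the Δ*cpc-3* strains, against 152, 156, 172 and 196 TPM in the WT strains in the same order. No Δ*cpc-3* strain reached the lowest WT strain. The means were 113 ± 11.1 TPM in Δ*cpc-3* and 169 ± 19.98 TPM in WT (SD, n = 4 each), a log2 change of -0.57 ± 0.13 (adjusted p = 0.0272). It was -0.54 from the midpoint (adjusted p = 0.0260) and -0.96 relative to the library median (adjusted p = 0.00234).

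The other members overlapped between the hosts. *his-3* mRNA was 153, 171, 172 and 147 TPM in Δ*cpc-3* and 153, 161, 185 and 178 TPM in WT, and its log2 change was -0.07 (adjusted p = 0.689). *cpc-2* mRNA was 792, 745, 869 and 911 TPM in Δ*cpc-3* and 772, 770.2, 899 and 1077 TPM in WT, with a log2 change of -0.08 (adjusted p = 0.747). Relative to the library median, where 12.4% of genes were called lower, both were lower, *his-3* by -0.46 (adjusted p = 0.0285) and *cpc-2* by -0.46 (adjusted p = 0.0323). *arg-2* mRNA was 138, 125, 148 and 171 TPM in Δ*cpc-3* and 99.7, 114, 139 and 125 TPM in WT. Its Δ*cpc-3* strain was above the WT strain with the same reporter for all 4 reporters, but the log2 change of 0.28 did not pass the test (adjusted p = 0.229). That direction belongs to the TPM scale, since relative to the library median *arg-2* stood at -0.10 (adjusted p = 0.615). Thus 1 of 5 members was higher and 1 of 5 lower, where 15.6% of the 7911 genes tested were called higher and 2.72% lower. All Δ*cpc-3* strains stood above all WT strains for 22.6% of genes and below them for 4.9%. With any 1 of the 4 reporter pairs left out, neither call passed: the adjusted p lay between 0.0894 and 0.136 for *cpc-1* and between 0.0550 and 0.127 for *trp-3*, with 3 strains per host. With the reporter as a pairing block neither passed either (adjusted p = 0.0815 for *cpc-1* and 0.0653 for *trp-3*).

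**Figure D2:**
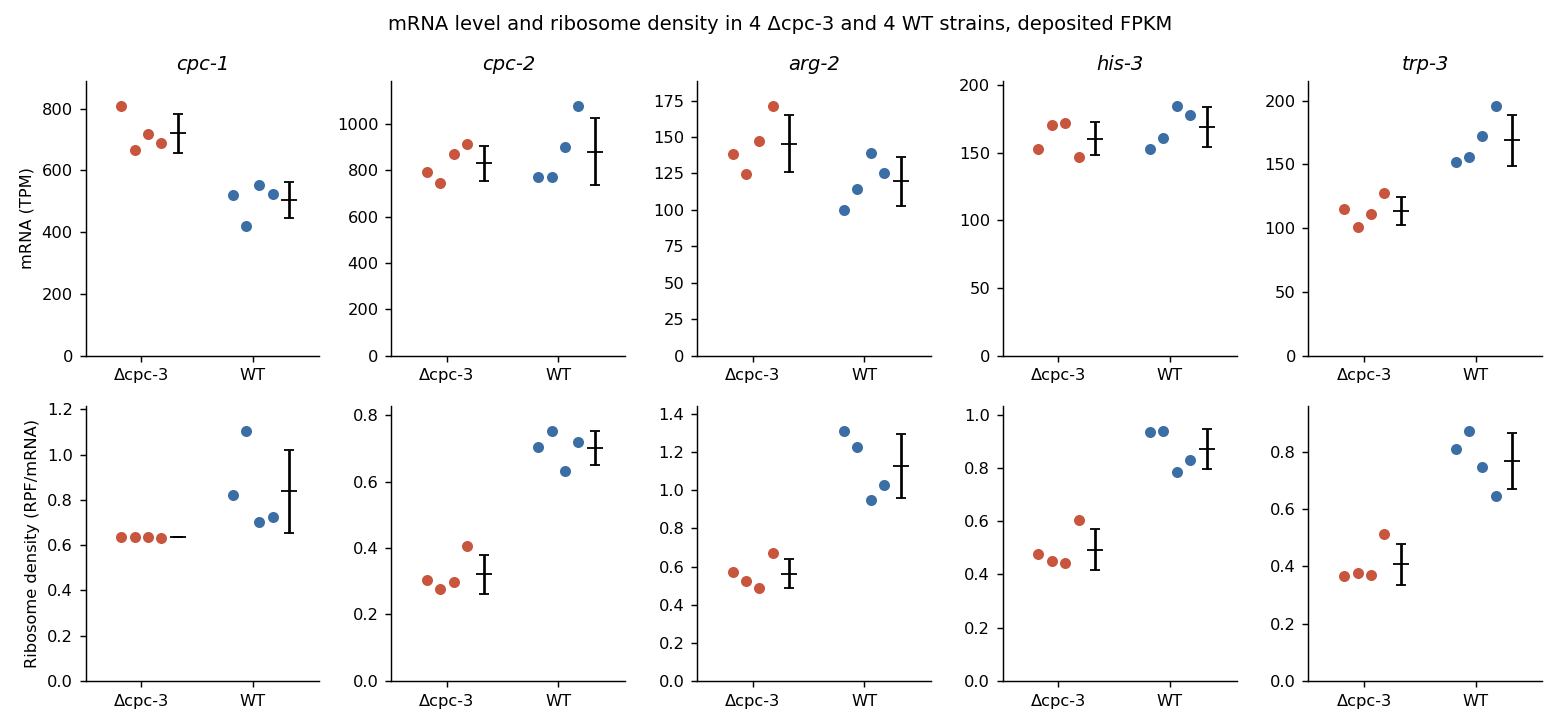
mRNA level in TPM (top) and ribosome density, the ratio of RPF to mRNA TPM with no unit (bottom), from the deposited FPKM. Each point is a strain, Δ*cpc-3* left and WT right, with reporters from left to right 3×OPT, 1×OPT, 3×WT and 1×WT; bars are the mean and SD of 4 strains. *cpc-1* mRNA and *trp-3* mRNA do not overlap between the hosts, and the *cpc-1* density of the 4 Δ*cpc-3* strains lies between 0.634 and 0.638.

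The RPFs of *trp-3* were the lowest of the 5 members in Δ*cpc-3*, and lower than in WT on either estimate. From the deposited FPKM the 13 Δ*cpc-3* libraries held 32.6 to 75.7 TPM (median 41.4), against 116 to 159 TPM (median 127) in the 12 WT libraries. Among the Δ*cpc-3* libraries the 3 highest, 75.7, 74.9 and 70.5 TPM, were replicates 1 to 3 with 1×WT-EDP, while replicate 4 of that strain held 36.1 TPM. The merged strains changed by -1.50 ± 0.16 (log2, SE; adjusted p = 7.7e-05). From the midpoint the libraries held 122 to 174 TPM in Δ*cpc-3* and 248 to 285 TPM in WT, again with no overlap, and the change was -0.81 ± 0.08 (adjusted p = 0.00013). All 4 reporters gave the same direction, from -1.90 ± 0.21 with 1×OPT-EDP to -1.05 ± 0.19 with 1×WT-EDP (FPKM), and from -1.03 ± 0.09 to -0.67 ± 0.09 (midpoint, 1×OPT-EDP and 3×OPT-EDP).

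*cpc-2*, the ribosomal WD-repeat protein, was also lower on both estimates, although the size differed. From the FPKM it held 187 to 437 TPM (median 246) in Δ*cpc-3* libraries and 513 to 885 TPM (median 588) in WT libraries, without overlap. The change was -1.22 ± 0.18 (adjusted p = 0.00045). From the midpoint it held 576 to 848 TPM in Δ*cpc-3* and 948 to 1537 TPM in WT, also without overlap, and the change was -0.51 ± 0.14 (adjusted p = 0.0167). The WT strain with 1×WT-EDP stood above the other WT strains in both assays, at 775 RPF TPM against 543 to 578 and at 1077 mRNA TPM against 770.2 to 899.

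In the test over merged strains *his-3* was called lower from the FPKM alone. Its RPFs were 69.998 to 95.4 TPM (median 76.5) in Δ*cpc-3* and 132 to 187 TPM (median 141) in WT, with no overlap and a change of -0.90 ± 0.09 (adjusted p = 5.67e-05). From the midpoint it held 204 to 311 TPM in Δ*cpc-3* and 295 to 330 TPM in WT. These ranges overlap, and the change of -0.15 (95% interval -0.33 to 0.03) did not pass (adjusted p = 0.158). The lowest 3 midpoint values, 204, 208 and 229.5 TPM, were those of replicates 1 to 3 with 1×WT-EDP, and replicate 4 of that strain held 309 TPM.

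*arg-2* too was called lower over the merged strains from the FPKM alone. From the FPKM it held 59.8 to 135 TPM (median 73.3) in Δ*cpc-3* and 118 to 174 TPM (median 128) in WT, and the change of -0.72 ± 0.16 passed (adjusted p = 0.00389). Replicates 1 to 3 of Δ*cpc-3* with 1×WT-EDP, at 135, 123 and 130.2 TPM, lay inside the WT range, and the other 10 libraries, at 59.8 to 81.6 TPM, lay below it. From the midpoint the libraries held 219.6 to 311 TPM in Δ*cpc-3* and 246 to 284 TPM in WT, and the change was 0.03 (95% interval -0.16 to 0.23; adjusted p = 0.781).

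*cpc-1* was the only member with no lower call. It held 405 to 524 RPF TPM (median 441) in Δ*cpc-3* and 364 to 479.5 TPM (median 421) in WT. The change was 0.14 (95% interval -0.09 to 0.37; adjusted p = 0.264) from the FPKM and 0.04 (-0.15 to 0.23; adjusted p = 0.721) from the midpoint. It did pass from the FPKM when set relative to the library median (0.31, adjusted p = 0.0359) or when the TPM left out NCU16635 (0.30, adjusted p = 0.0342), which held 23.4% to 38.3% of RPF TPM in Δ*cpc-3* and 10.01% to 25.4% in WT. Relative to the library median the midpoint gave 0.02 (adjusted p = 0.837). In all, 4 of 5 members were lower from the FPKM, where 39% of 6694 genes were called lower, and 2 of 5 from the midpoint, where 22.4% of 6986 were. No overlap between hosts, all Δ*cpc-3* libraries below all WT libraries, was seen for 3 of 5 members (FPKM) against 13.4% of genes, and for 2 of 5 (midpoint) against 6.34%.

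**Figure D3:**
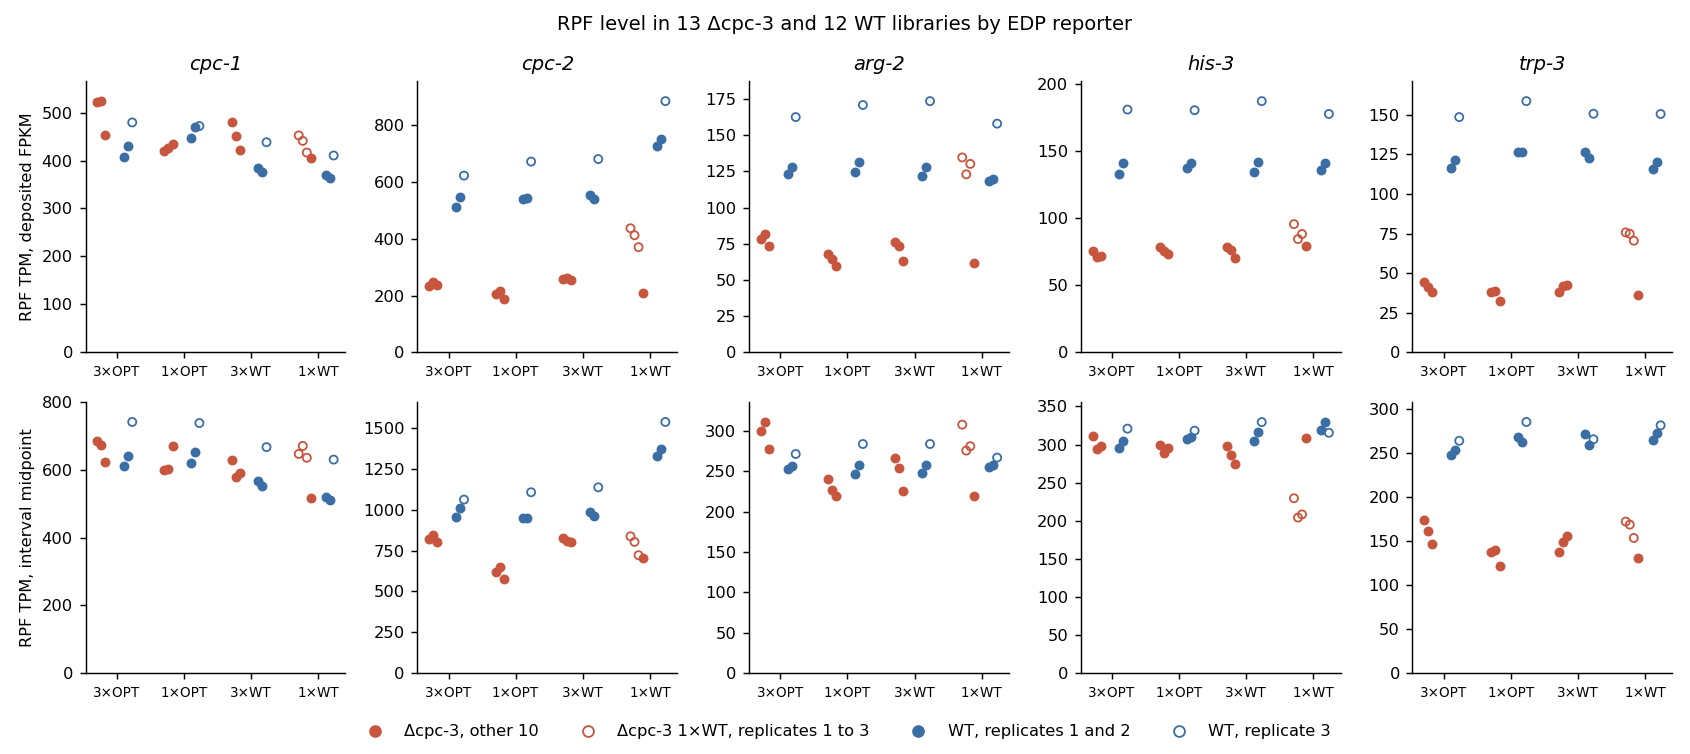
RPF level in TPM for each library, from the deposited FPKM (top) and from the interval midpoint (bottom), by reporter; Δ*cpc-3* libraries are red and left, WT libraries blue and right. Open symbols are replicates 1 to 3 of Δ*cpc-3* with 1×WT-EDP and replicate 3 of the WT strains. *trp-3* and *cpc-2* separate the hosts in both rows, and *his-3* and *arg-2* overlap in the lower row.

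The libraries with 1×WT-EDP allowed a comparison at like ratios, chosen after seeing the data: replicates 1 to 3 of Δ*cpc-3* against replicates 1 and 2 of WT, in the limma fit over libraries. *cpc-2* held 437, 412 and 370.3 TPM in Δ*cpc-3*, against 728 and 753 TPM in WT, a change of -0.87 (adjusted p = 3.4e-05). *trp-3* changed by -0.68 (adjusted p = 0.000826), with 75.7, 74.9 and 70.5 TPM in Δ*cpc-3* and 116 and 120.2 TPM in WT. *his-3* changed by -0.63 (adjusted p = 0.00395), with 95.4, 84.2 and 88.0 TPM in Δ*cpc-3* and 135 and 141 TPM in WT. *arg-2* did not differ beyond the spread (0.12, adjusted p = 0.641), nor did *cpc-1* (0.25, adjusted p = 0.0677). These 5 libraries cover 1 reporter and 1 transformant per host. The share of all genes called with them was not counted for this reporter alone. With all 1×WT-EDP libraries 23.1% of genes were called lower. Without replicate 3 of the WT strains and replicates 1 to 3 of Δ*cpc-3* with 1×WT-EDP, also chosen after seeing the data, each host holds libraries of 1 ratio set, and the merged strains changed by -1.36 for *cpc-2*, -0.85 for *arg-2*, -0.86 for *his-3* and -1.64 for *trp-3* (all called, FPKM) and by 0.15 for *cpc-1* (adjusted p = 0.254). In that fit 2818 genes were called lower, against 2609 (39%) in the fit of all libraries, and the median gene changed by -0.19. The ratio set and the host cannot be told apart there.

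Ribosome density, the RPF TPM divided by the mRNA TPM in each strain with 0.1 added to each, joins both assays. From the FPKM it was lower for 4 of 5 members, where 37.9% of the 6685 genes were called lower. *cpc-2* had 0.302, 0.277, 0.298 and 0.407 in the Δ*cpc-3* strains and 0.704, 0.751, 0.631 and 0.720 in the WT strains, the lowest density of the 5 genes in Δ*cpc-3*, and changed by -1.14 ± 0.16 (adjusted p = 0.00204). *arg-2* had 0.571, 0.523, 0.489 and 0.669 in Δ*cpc-3* and 1.31, 1.22, 0.947 and 1.03 in WT, the highest of the 5 in WT, and changed by -0.9995 ± 0.16 (adjusted p = 0.0036). From the FPKM the Δ*cpc-3* and WT strains did not overlap for either gene, nor for *trp-3*, *his-3* and *cpc-1*. From the midpoint they overlapped for *arg-2* (up to 0.967 in Δ*cpc-3*, from 0.905 in WT) and *his-3* (up to 0.855 in Δ*cpc-3*, from 0.818 in WT). The share of all genes without overlap in density was not counted, so whether this sets the members apart cannot be told. *trp-3* averaged 0.406 ± 0.072 in Δ*cpc-3* and 0.768 ± 0.097 in WT (SD, n = 4 each), a change of -0.92 (adjusted p = 0.00501), and *his-3* averaged 0.493 ± 0.077 in Δ*cpc-3* and 0.871 ± 0.077 in WT, a change of -0.83 (adjusted p = 0.00501). The median gene changed by -0.52 on this scale, and relative to the median of each strain *cpc-2* and *arg-2* kept their calls (-0.64 and -0.50, adjusted p = 0.016 and 0.0474), while *trp-3* and *his-3* did not (-0.42 and -0.33, adjusted p = 0.068 and 0.108).

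From the midpoint the densities were closer. *arg-2* had 0.967, 0.863, 0.850 and 0.789 in Δ*cpc-3* and 1.17, 1.05, 0.905 and 1.02 in WT, a change of -0.25 (adjusted p = 0.169). Of the 5 members 2 were called lower, *cpc-2* and *cpc-1*, where 19.4% of 6979 genes were. *his-3* (-0.12, adjusted p = 0.400) and *trp-3* (-0.27, adjusted p = 0.0857) were not called either, so that for *trp-3* the midpoint change was called in mRNA and RPFs but not in their ratio. *cpc-2* was called (-0.44, adjusted p = 0.0283), with a mean of 0.508 in Δ*cpc-3* and 0.690 in WT. The median gene changed by -0.32 on this estimate, and relative to it no member was called, with *cpc-2* at -0.13 (adjusted p = 0.527), *trp-3* at 0.05 and *his-3* at 0.20.

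The density of *cpc-1* varied little in the Δ*cpc-3* strains and more in the WT strains. It was 0.635, 0.638, 0.635 and 0.634 in Δ*cpc-3*, with an SD of 0.0018, and 0.821, 1.103, 0.704 and 0.722 in WT, with an SD of 0.184. From the FPKM every Δ*cpc-3* strain was below every WT strain, as for the other members, a pattern whose share over all genes was not counted. The change of -0.37 (95% interval -0.76 to 0.01) did not pass from the FPKM (adjusted p = 0.105) and that of -0.49 passed from the midpoint (adjusted p = 0.0433), where the means were 0.506 in Δ*cpc-3* and 0.716 in WT. The midpoint values spread more evenly, 0.471 to 0.527 in Δ*cpc-3* and 0.632 to 0.896 in WT. Relative to the median of each strain the FPKM gave 0.13 (adjusted p = 0.573) and the midpoint gave -0.17 (adjusted p = 0.443).

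**Figure D4:**
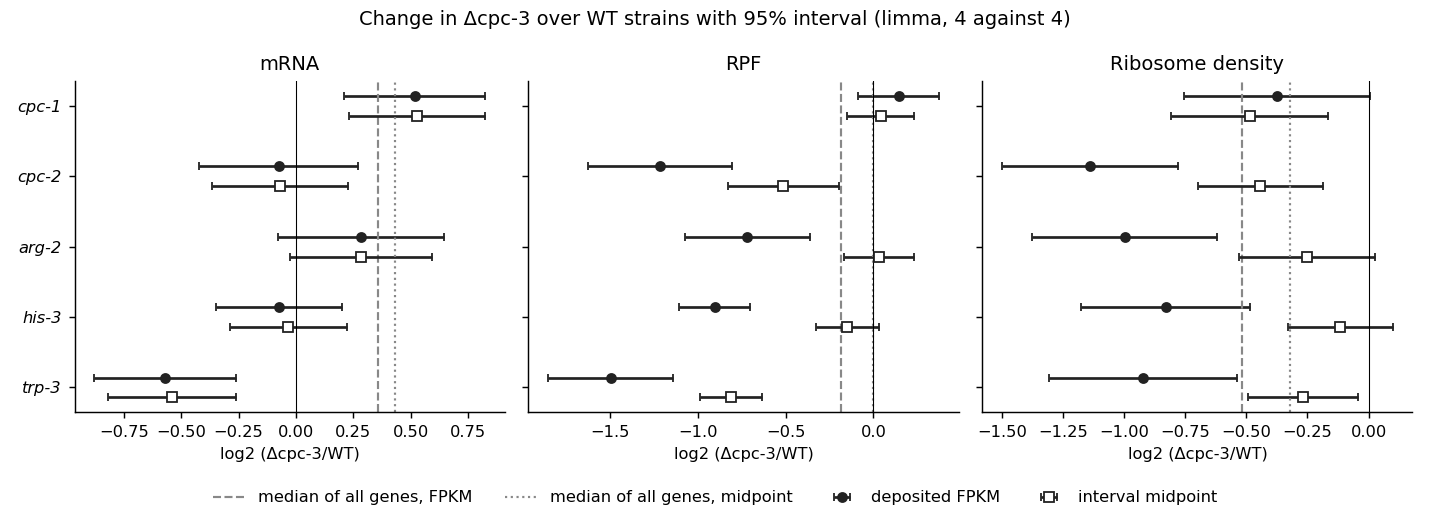
Log2 change of Δ*cpc-3* over WT in mRNA, RPF and ribosome density (x axes) for the 5 genes (rows), with the 95% interval of limma over 4 strains each. Filled circles are from the deposited FPKM and open squares from the interval midpoint; dashed and dotted lines mark the median of all genes tested for each. *trp-3* lies left of both medians in mRNA and RPF, and *cpc-1* lies right of 0 in mRNA (0.52).

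The order of the members by level was the same at mRNA in both hosts for the leading pair only. By mean mRNA TPM, *cpc-2* was followed by *cpc-1* in Δ*cpc-3* (829.3 and 719.8 TPM) and in WT (879 and 504 TPM), and the strain values of the pair overlapped in Δ*cpc-3* but not in WT. The 3 biosynthetic genes came after them, between 113 and 161 TPM in Δ*cpc-3* and between 119.6 and 169 TPM in WT, where *his-3* and *trp-3* could not be ordered within their spread. At RPFs from the FPKM, *cpc-1* led in Δ*cpc-3* (450.0 TPM over libraries, against 271 for *cpc-2*) and *cpc-2* led in WT (632 TPM, against 421 for *cpc-1*). From the midpoint *cpc-2* led in both, by strain means of 764 against 623 TPM in Δ*cpc-3* and of 1097 against 607 TPM in WT.

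Within the reporters, the Δ*cpc-3* against WT contrast of the RPF libraries was called lower in 15 of 20 cases from the FPKM, with *cpc-2*, *his-3* and *trp-3* in all 4 reporters and *arg-2* in 3. The share of all genes called lower was 32% for 3×OPT-EDP, 41.8% for 1×OPT-EDP, 34% for 3×WT-EDP and 23.1% for 1×WT-EDP. *arg-2* was not called with 1×WT-EDP (-0.29, adjusted p = 0.316). With replicate 4 of that strain alone in Δ*cpc-3* it stood at -1.09 (adjusted p = 0.00105), where the spread of that single library was taken from the other groups. When set relative to the library median *cpc-1* was called higher in all 4 reporters (0.37 with 3×OPT-EDP, 0.23 with 1×OPT-EDP, 0.40 with 3×WT-EDP and 0.23 with 1×WT-EDP; adjusted p = 0.000383, 0.0186, 0.000204 and 0.0105), where 17.5%, 17.9%, 17.7% and 16.5% of genes were called higher. Without NCU16635 in the TPM *cpc-1* was also called higher in all 4, where 18.1%, 15.8%, 13.3% and 19.4% of genes were. From the midpoint 9 of 20 cases were called, *cpc-2* and *trp-3* in all 4 reporters and *his-3* with 1×WT-EDP (-0.46, adjusted p = 0.00112). The share of all genes called lower was then 12.5% for 3×OPT-EDP, 16.8% for 1×OPT-EDP, 19.6% for 3×WT-EDP and 17.5% for 1×WT-EDP.

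Whether the host difference itself varied with the reporter was tested by the interaction. No member passed from the FPKM by limma, where 4.02% of genes did, and at an unadjusted p under 0.05 only *trp-3* did (limma adjusted p = 0.234). Without replicate 4 of Δ*cpc-3* with 1×WT-EDP, *arg-2* (F = 10.7, adjusted p = 0.00365) and *trp-3* (F = 14.7, adjusted p = 0.000882) passed. From the midpoint *cpc-2* passed (F = 10.9, adjusted p = 0.0111), where 5.24% of genes did. Its change was -0.30 with 3×OPT-EDP, -0.70 with 1×OPT-EDP, -0.33 with 3×WT-EDP and -0.88 with 1×WT-EDP.

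Optimized against native codons of the reporter changed no member from the FPKM in either host (0 of 10 by limma, 3 of 10 at an unadjusted p under 0.05). All genes called made up 3.97% in Δ*cpc-3* and 0.866% in WT. The values nearest to a call were those of *cpc-2* (-0.44, adjusted p = 0.0586) and *trp-3* (-0.37, adjusted p = 0.119) in Δ*cpc-3*. Without replicate 4 of Δ*cpc-3* with 1×WT-EDP 3 were called there, *cpc-2* (-0.56), *trp-3* (-0.50) and *arg-2* (-0.44, adjusted p = 0.00636). Without replicates 1 to 3 of that strain instead, which leaves it 1 library with its spread taken from the other groups, none was, and *cpc-2* stood at -0.08 (adjusted p = 0.858). From the midpoint *cpc-2* was lower with optimized codons in WT (-0.26, adjusted p = 0.0335), where 2.35% of genes were called, and none of the 5 was called in Δ*cpc-3*, where 1.03% were. The 1×WT-EDP strain of WT alone stood apart, with a *cpc-2* midpoint mean of 1412 TPM. The means were 1028 TPM with 3×WT-EDP, 1002 TPM with 1×OPT-EDP and 1010 TPM with 3×OPT-EDP. For 3 copies against 1 copy, 0 of 10 were called by limma (1 of 10 at an unadjusted p under 0.05), where 2.69% of genes were in Δ*cpc-3* and 0.0746% in WT. Without replicate 4 *trp-3* was called in Δ*cpc-3* (-0.34, adjusted p = 0.0140). From the midpoint *cpc-2* was higher with 3 copies in Δ*cpc-3* (0.25, adjusted p = 0.0209), where 5.44% of genes were called and the FPKM gave -0.09 (adjusted p = 0.754), and none was called in WT, where 0.286% were. Its Δ*cpc-3* midpoint mean was lowest with 1×OPT-EDP, at 616 TPM. It was 767 TPM with 1×WT-EDP, 813 TPM with 3×WT-EDP and 822 TPM with 3×OPT-EDP.

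The wider set of amino acid biosynthesis genes, 57 with such a symbol and *arg-2*, *his-3* and *trp-3* among them, was set beside the members. At mRNA 18 of 57 were lower and 1 higher, where 2.72% of all genes were lower and 15.6% higher, the median being -0.24 while that of all genes was 0.36. Centred on the library median, 36 were lower and none higher, where 12.4% of all genes were lower and 5.73% higher. Lowest were *arg-10* (-1.12 ± 0.13, adjusted p = 0.003), which encodes argininosuccinate lyase, *arg-1* (-0.89), which encodes argininosuccinate synthetase, and *aro-7* (-0.89), which encodes a DAHP synthase of the aromatic pathway. *thr-5* was the gene called higher (0.80 ± 0.16, adjusted p = 0.0166), and the smallest decreases called were those of *cys-11* (-0.45) and *ilv-4* (-0.45). *arg-1* averaged 307 mRNA TPM in Δ*cpc-3* and 567 TPM in WT, and *arg-10* averaged 97.4 TPM in Δ*cpc-3* and 212 TPM in WT. The midpoint gave the same counts at mRNA, 18 lower and 1 higher, where 2.1% and 14% of all genes were.

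At RPFs 51 of 56 were lower and 1 higher from the FPKM (median -0.93, all genes -0.19), and 37 of 57 lower and 3 higher from the midpoint (median -0.46, all genes -0.01). Of all genes 39% were lower and 15.1% higher from the FPKM, and 22.4% lower and 21.2% higher from the midpoint. At density 38 of 56 were lower from the FPKM (median -0.58, all genes -0.52) and 10 of 57 from the midpoint (median -0.15, all genes -0.32), with 1 higher. Of all genes 37.9% were lower from the FPKM, and 19.4% lower and 2.13% higher from the midpoint, so that the midpoint share of the list called lower (17.5%) was close to that of all genes. On the midpoint estimate the list's median density change was thus above that of all genes. In the mRNA contrast *trp-3* stood with the genes that were lower, while *his-3* and *arg-2* stood with the 38 that were not called.

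Within the pathways of the members, the mRNA of some steps was called lower on the TPM scale and that of others was not. Of 9 arginine genes 3 were lower at mRNA: *arg-1*, *arg-10* and *arg-12* (-0.69, adjusted p = 0.00943), which encodes ornithine carbamoyltransferase. *arg-2* at 0.28 and *arg-3* at 0.12, the small and the large subunit of the same synthetase, were not called, nor were *arg-4* (0.18), *arg-5* (-0.27), *arg-6* (0.36) and *arg-14* (0.36). Relative to the library median *arg-5* was called lower as well (-0.65, adjusted p = 0.0327). At RPFs 8 of 9 were lower from the FPKM, where 39% of all genes were, and 5 of 9 from the midpoint, where 22.4% were; the medians were -1.09 and -0.40, against -0.19 and -0.01 for all genes. *arg-3* RPFs gave -1.17 from the FPKM and -0.33 from the midpoint, which was not called. *arg-1* RPFs averaged 204 TPM in Δ*cpc-3* and 551 TPM in WT from the FPKM.

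Of 4 histidine genes 2 were lower at mRNA, *his-2* (-0.63, adjusted p = 0.0191), which encodes ATP phosphoribosyltransferase, and *his-6* (-0.53, adjusted p = 0.0262), while *his-3* (-0.07) and *his-7* (-0.17) were not called on the TPM scale. Relative to the library median *his-3* was called too (-0.46, adjusted p = 0.0285). All 4 were lower at RPFs from the FPKM, and *his-2* (-0.58) and *his-6* (-0.82) from the midpoint. Of 4 tryptophan genes *trp-3* and *trp-4* (-0.67, adjusted p = 0.0244), which encodes anthranilate phosphoribosyltransferase, were lower at mRNA. *trp-1* (0.00) and *trp-2* (0.08), for parts of anthranilate synthase, were not called. At RPFs all 4 were lower from the FPKM and 3 from the midpoint, where *trp-2* stood at 0.03. Of all genes 2.72% were lower at mRNA, and 39% from the FPKM and 22.4% from the midpoint at RPFs. When centred on the library median, *trp-3* and *trp-4* were again the tryptophan genes called at mRNA.

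Beside *cpc-2*, the 7 ribosomal protein genes with a *crp* symbol were not called at mRNA on the TPM scale (median -0.19; 6 of 7 were lower relative to the library median, where 12.4% of all genes were), and 5 of 7 were lower at RPFs on either estimate (median -0.63 from the FPKM and -0.49 from the midpoint). Of all genes 39% and 22.4% were lower, with medians of -0.19 and -0.01. *cpc-2* gave -1.22 and -0.51 on the same estimates. The largest of the 7 was *crp-4*, at -1.42 and -0.62.

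The genes nearest to each member over the 25 RPF libraries were ranked by Pearson's r of log2 TPM relative to the library median, among 3776 genes with a mean of at least 10 TPM. All points share their libraries, their depth and the ratios described above. *cpc-2* lay nearest to *aac*, which encodes the mitochondrial ADP/ATP carrier (r = 0.99, midpoint 0.95), NCU00413 (0.99, midpoint 0.95) and *eth-1*, which encodes S-adenosylmethionine synthetase (0.99, midpoint 0.94). *trp-3* lay nearest to NCU07755, NCU00414 and *lys-3*, a gene of lysine synthesis (all 0.99, midpoint 0.97 to 0.98). *his-3* lay nearest to NCU00405, NCU00935 and NCU00673 (0.98 each, midpoint 0.82 to 0.96). The neighbours of *arg-2* were NCU01439, *nca-2* and *atp-2*, the last for a subunit of the mitochondrial ATP synthase (0.97 to 0.98, midpoint 0.39 to 0.69), and those of *cpc-1* were NCU04058, NCU11260 and NCU03284 (0.88 to 0.89, midpoint 0.28 to 0.44), so that neither gene's neighbours were as close from the midpoint. Among the members, *cpc-2* and *trp-3* were alike on both (r = 0.96, midpoint 0.87). *cpc-1* ran opposite to the other 4 from the FPKM (r = -0.84 to -0.72), and from the midpoint r lay between -0.05 and 0.38.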

How the data were processed

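The members and gene lists were chosen with earlier results of these data known. The authors mapped RPF and mRNA reads to CDS regions; the labels name Bowtie2 and Cufflinks, and the genome build and annotation are not given in the sources used here. The deposited values are FPKM (fragments per kilobase of CDS, scaled to library size) with an interval and a coverage signal per CDS; the coverage signal, as deposited, was used only to check the FPKM. Interval bounds corresponded to whole reads in 100% of the bounds checked, which left out bounds of 0 and the highest counts. This gave depth and the midpoint estimate. The ratio of the coverage signal to the FPKM spread within a library by 22.97% to 164% of its median. No PCR duplicate step is described, so duplicates may be among the reads counted.

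FPKM or midpoints were scaled to TPM over all 9731 entries. RPF replicates of a strain were merged by read-weighted mean FPKM, and the 4 reporter strains served as replicates of each host, following the study's methods. Whether libraries with different numbers came from separate cultures is taken from those methods, which call them biological replicates. With 1 mRNA library per strain, SEs and p-values of the tests over merged strains measure the spread between strains. Those of the within-reporter, codon, copy and interaction tests measure the spread between replicate libraries of a strain. Log2 (TPM + 0.1) was tested with limma 3.58.1 (R 4.3.3), adjusted by Benjamini-Hochberg over those genes whose mean TPM reached 1, with calls at 0.05; limma on library values gave the within-reporter contrasts. Fits were tested on simulated data. Further tools were Python 3.11.15, numpy 2.4.6, pandas 2.3.3 and matplotlib 3.10.9. Alternatives were the pseudocount, minimum TPM, centring on the library median, the midpoint, leaving out NCU16635, merging, pairing and leaving out libraries.

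The named genes are the 5 members, *cpc-3*, NCU16635, other *arg*, *his* and *trp* genes by symbol, the 3 highest and 3 lowest called in the amino acid list at mRNA, and 3 nearest patterns per member; *his-1*, *his-4* and *his-5* were not found by symbol, and *crp-4* was named after its values were seen. Symbols came from the NC12 gene table, where 9728 of 9729 identifiers matched, and its coordinates were not used. A search of promoters for the CPC-1 motif was not run.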

Additional observations from a re-analysis of the deposited data

Results flagged for a closer look

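In a group of 4 a sample was set apart when its gap to the nearest other made up most of the range. This happened in 5 of 35 such groups. Chance gives about 1 in 20 for independent groups, but these share libraries and values, so the counts cannot be compared. Among the RPF libraries of Δ*cpc-3* with 1×WT-EDP, replicate 4 stood below the others for *arg-2* (61.4 TPM, the next 123) and for *trp-3* (36.1 TPM, the next 70.5). Over the merged Δ*cpc-3* strains, 1×WT-EDP stood above the others for *trp-3* RPFs (65.4 TPM, the next 42.2) and *trp-3* density (0.515, the next 0.376). Over the WT strains, 1×WT-EDP stood above the others for *cpc-2* RPFs (775 TPM, the next 578). The FPKM to midpoint ratio of replicate 4 was like that of the 9 Δ*cpc-3* libraries with other reporters and unlike that of replicates 1 to 3, and the part of the ratio in these values was not tested. The difference of the host effect between reporters passed for *cpc-2* from the interval midpoint (F = 10.9, adjusted p = 0.0111) and not from the FPKM (adjusted p = 0.730).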

How the results depend on the processing

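Genes called numbered 1448 at mRNA, 529 with the replicate block (reporter as the pair) and 364 to 783 with 1 reporter pair left out; 3617 at RPFs and 2391 at a minimum of 10 TPM; and 2674 at density, 1594 at a minimum of 10 TPM, 1013 centred on the median, 1506 from the midpoint, 984 from the centred midpoint (added after seeing the data, as were the 1×WT-EDP library choices), 985 with a 2-fold change asked too, and 1265 to 2544 with 1 reporter pair left out. Centring on the median gave 453 higher and 980 lower calls at mRNA, against 1233 and 215, and 1675 higher and 2025 lower at RPFs, against 1008 and 2609, and 497 higher and 516 lower at density, against 142 and 2532.

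Of 1670 alternative values of single members 84 turned in direction, 73 of them called neither before nor after, such as *arg-2* mRNA when centred (-0.10), *arg-2* with 1×WT-EDP from the midpoint (0.051), and 3 copies against 1 in Δ*cpc-3* without replicates 1 to 3 of 1×WT-EDP (*cpc-2* 0.27, *arg-2* 0.24, *trp-3* 0.18). The 11 with a call turned for *arg-2* RPFs from the midpoint (0.033; centred 0.017), for density from the centred midpoint (*arg-2* 0.067, *his-3* 0.20, *trp-3* 0.050), for *cpc-1* with 1×OPT-EDP when centred (0.23) or without NCU16635 (0.19), for *arg-2* with 3×OPT-EDP from the midpoint (0.19; centred 0.13), and for *cpc-2* with 3 copies against 1 in Δ*cpc-3* from the midpoint (0.25; centred 0.32). The cause was not tested. *cpc-1* mRNA was not called without a minimum TPM (adjusted p = 0.0553).

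Of the 20 within-reporter cases 15 were called, 19 centred on the median or without NCU16635, and 9 from the midpoint, centred or not. Optimized against native codons gave 0 of 10, but 1 at a minimum of 10 TPM, 2 centred, 1 from the midpoint, centred or not, 1 with limma's trend and robust options, and 3 with the alike 1×WT-EDP libraries; leaving out single libraries gave 0 to 3, with 3 without replicate 4 of Δ*cpc-3* with 1×WT-EDP. For 3 copies against 1 it was 0, but 1 centred, 1 from the midpoint, centred or not, 2 with the alike libraries, and 0 to 1 with a library left out. The interaction gave 0 of 5, but 1 from the midpoint, centred or not, 3 with the alike libraries, and 0 to 2 with a library left out.

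Replicate numbers and reporters were checked as pairs: same-numbered RPF libraries of different strains deviated together with a mean r of 0.03 (-0.11 to 0.30), and the reporters across hosts with 0.04 at mRNA, 0.06 at RPFs and 0.03 at density, so that not every pair passed 0.1 and no pairing was assumed. The number is not empty in WT, where same-numbered libraries had a mean r of 0.14 (0.015 to 0.30) and differently numbered ones a mean of -0.07. There replicate 3 of the 4 strains deviated together (r = 0.19 to 0.30 over 6 pairs) and formed a ratio set of its own. The fits over libraries without the block left this shared deviation in their spread. With the replicate block *cpc-1* and *trp-3* mRNA had an adjusted p of 0.0815 and 0.0653, and the counts were 3 of 10 for codons, 2 of 10 for copies and 2 of 5 for the interaction. Only Δ*cpc-3* with 1×WT-EDP has a replicate 4, so the block over libraries sets that library aside. Its codon changes in Δ*cpc-3* (such as *cpc-2* -0.56) were those without replicate 4 and with the alike libraries. These alternatives are thus not independent of each other.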
